A study of Mus musculus with 28 samples.

Results

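The 47 genes described here encode lysosomal hydrolases, their helper proteins and proteins of the lysosomal membrane. They comprise 13 proteases, 11 glycosidases, 5 sulfatases, 8 proteins of lipid breakdown and transport, 7 membrane proteins, and 3 genes of sorting and control. The genes were chosen by an earlier look at these same libraries: those that differed between GFP+ and tdTomato+ stroma were enriched in the lysosome pathway. That contrast is therefore described only: no p is given for it, and its counts restate the choice. All 47 symbols were found among the 50600 genes counted, of which 12360 had no count in any library.

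Lysosomes are acidic, membrane-bound compartments in which hydrolases break down proteins, glycans and lipids that arrive by endocytosis, phagocytosis or autophagy. Most soluble hydrolases reach them on mannose 6-phosphate receptors, and a proton pump, the vacuolar ATPase, keeps the lumen acidic. In the mammary gland, stromal fibroblasts use such enzymes to turn over matrix that they take up, and lysosomal proteases of the epithelium are known for their part in regression after weaning.

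RNA was sequenced from 28 libraries of sorted mammary cells from 7 C57BL/6 mice, PdgfraCre R26mTmG, aged 10 to 12 weeks. In these mice Cre driven by the Pdgfra promoter removes tdTomato and switches on eGFP, so GFP+ cells had Cre at some time or descend from cells that did, and tdTomato+ cells are the rest of the same gate. Each mouse gave 4 libraries: GFP+ stroma, tdTomato+ stroma, GFP+ luminal cells and tdTomato+ luminal cells. There were 4 untreated mice and 3 mice given estradiol and progesterone (E+P), which makes 8 groups. Slow-release pellets of 0.14 mg estradiol and 14 mg progesterone for 14 days are described for wild-type mice. Cells positive for CD31, CD45 or Ter119 were gated out before the sort. Library totals ran from 8623383 to 24583803 counts, with a median of 15329083.5.

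Levels are CPM, a gene's share of the counts of its library, scaled by TMM, and differences are log2 fold changes with their standard error. A gene passed the test at a Benjamini-Hochberg adjusted p under 0.01 over all genes tested (edgeR, two-sided). The model had no term for mouse, so libraries of the same mouse were treated as independent. Counts with mouse as a block are given at the end. At these depths 3 counts, the limit that a count of 0 allows for counting error alone, equal 0.116 to 0.302 CPM. All 47 genes passed the filter on low counts in stroma and across all libraries, and 46 did in luminal cells, where Ctss did not. These are bulk libraries, so fewer cells of a type and less RNA per cell cannot be told apart.

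The labels were first set against marker genes. The 6 luminal keratin and epithelial markers summed to 4403 to 7744 CPM in the 14 luminal libraries, and the 9 fibroblast markers, led by Col3a1, to 33050 to 62290 CPM in GFP+ stroma. In tdTomato+ stroma the fibroblast sum was lower, 1818 to 6693 CPM, and the 11 pericyte and smooth muscle markers, led by Myh11 or Rgs5, summed to 7962 to 11150 CPM against 779.6 to 926 CPM in GFP+ stroma. The 7 skeletal muscle markers, led by Acta1, were high and uneven in tdTomato+ stroma, at 10540, 12150, 4197 and 2380 CPM untreated and 11310, 21090 and 6168 CPM with E+P, and at 7.66 to 16.1 CPM in GFP+ stroma. Luminal markers in untreated tdTomato+ stroma also varied, at 82.2, 315, 493 and 20.1 CPM, and with E+P they stood at 9.20, 41.0 and 3.86 CPM. The stromal subsets thus differ in their markers of other cell types as well. The 4 adipocyte markers were low in each, at most 10.1 CPM.

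Summed over the 47 genes, the level was highest in GFP+ stroma, which the choice of the genes fixes in part, and next in tdTomato+ luminal cells with E+P. The untreated GFP+ stromal libraries stood at 5858, 6174, 5979 and 6071 CPM and the E+P ones at 6234, 6074 and 6009 CPM. In tdTomato+ stroma the sums were 2161, 1919, 2426 and 2040 CPM untreated and 1777, 1747 and 1879 CPM with E+P, so no library of one stromal subset reached the range of the other. Luminal cells without hormone were alike, at 2394, 2429, 2290 and 2313 CPM in GFP+ and 2318, 2266, 2108 and 2482 CPM in tdTomato+ cells. With E+P the GFP+ luminal sums were 2092, 1952 and 1861 CPM, below every untreated one, and the tdTomato+ luminal sums 4189, 4959 and 4683 CPM, above every untreated one. As a share of all counts, with no scaling, the 47 genes took 0.510% to 0.561% of GFP+ stromal, 0.156% to 0.227% of tdTomato+ stromal, 0.205% to 0.295% of GFP+ luminal, 0.239% to 0.282% of untreated tdTomato+ luminal and 0.423% to 0.472% of E+P tdTomato+ luminal libraries. A few genes carry these sums: the 5 highest in each group made up 41.8% to 52.9% of them.

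**Figure D1:**
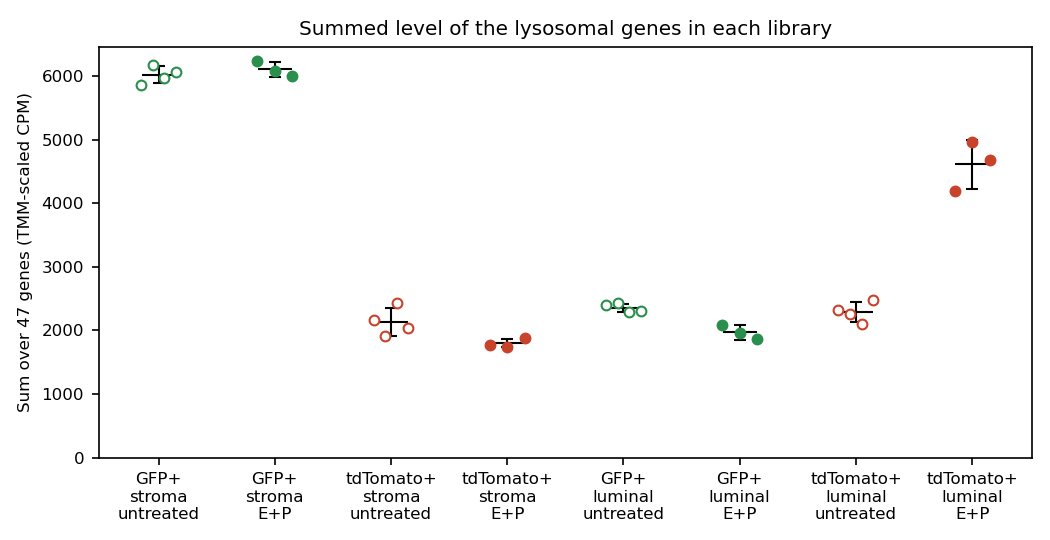
Summed level of the 47 lysosomal genes (CPM) in each of the 28 libraries by group, open points untreated and filled points E+P, with bars at the mean ± SD. GFP+ stroma has means of 6021 CPM untreated and 6105 CPM with E+P, and tdTomato+ luminal cells stand at a mean of 2294 CPM untreated and 4611 CPM with E+P.

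Divided by exon length, Psap, the precursor of the saposins that help enzymes reach sphingolipids, had the highest mean of the 47 in 7 of the 8 groups. In GFP+ stroma it was at 338 CPM per kb untreated and 297 with E+P, followed in both by Ctsk, a cysteine protease that cleaves collagen, at 188 and 162 CPM per kb. In tdTomato+ stroma Psap was at 86.2 and 71.1 CPM per kb, followed untreated by the tetraspanin Cd63 (46.8) and with E+P by Lamp1 (46.4), a main glycoprotein of the lysosomal membrane. The untreated luminal subsets shared their order per length: Psap, Lamp1 and Ctsb were at 147, 46.7 and 37.2 CPM per kb in GFP+ and at 83.6, 48.4 and 36.0 CPM per kb in tdTomato+ cells. With E+P, GFP+ luminal cells kept that order of levels per length, and in tdTomato+ luminal cells the aspartic protease Ctsd (158) and Grn (136), which encodes progranulin, stood above Psap (134). Over both treatments the median of the 47 genes was 11.9 CPM per kb in GFP+ and 3.87 in tdTomato+ stroma, and 5.59 in GFP+ and 8.53 in tdTomato+ luminal cells.

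GFP+ and tdTomato+ stroma are the subsets whose difference chose the genes, so their values are described and nothing is read from them. The choice of the genes rests on this contrast, so the counts that follow were fixed in part beforehand and test nothing. At the threshold used elsewhere 41 of the 47 were higher and 3 lower in GFP+ stroma, beside 20.6% and 21.3% of all 17783 genes. GFP+ stroma was higher in all 7 mice for 40 genes and lower in all 7 for 4. The median difference was 1.45 (log2) against -0.01 over all genes tested. By class, 11 of 13 proteases, 10 of 11 glycosidases, 5 of 5 sulfatases, 8 of 8 lipid genes and 7 of 7 membrane genes (6 by library size or by DESeq2 factors) had differences above 0, with medians of 1.70, 1.90, 1.85, 1.42 and 1.01. The 3 genes of sorting and control differed among themselves: Grn stood at 2.17 ± 0.10, Tfeb at -0.61 ± 0.21 and M6pr, a mannose 6-phosphate receptor, at -0.17 ± 0.09.

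Ctsk (ENSMUSG00000028111, chr3:95499256-95509362, + strand) had the largest difference among the genes higher in GFP+ stroma. Its levels in GFP+ stroma were 276, 179, 257 and 423 CPM untreated and 261, 207 and 267 CPM with E+P, and in tdTomato+ stroma 25.02, 22.1, 43.5 and 21.5 and 14.9, 13.6 and 19.6 CPM, a difference of 3.62 ± 0.22. The lowest GFP+ library lay above the highest tdTomato+ one. Among the glycosidases Gaa (ENSMUSG00000025579, chr11:119267887-119285454, + strand), which digests glycogen, had 238, 277, 264 and 303 CPM and 302, 293 and 274 CPM in GFP+ stroma against 56.9, 41.4, 76.2 and 50.5 and 37.6, 52.9 and 48.2 CPM, a difference of 2.44 ± 0.13. Naglu (ENSMUSG00000001751, chr11:101070012-101077672, + strand), a step in heparan sulfate breakdown, had 25.2, 25.9, 25.8 and 37.3 and 25.3, 23.2 and 22.01 CPM against 5.14, 4.97, 4.19 and 2.14 and 4.14, 1.39 and 3.55 CPM, a difference of 2.86 ± 0.24. Untreated replicate 4 was the highest of its GFP+ group for Ctsk and for Naglu, and the subsets did not overlap for any of these 3 genes.

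Arsb (ENSMUSG00000042082, chr13:93771630-93943016, + strand), the sulfatase of dermatan and chondroitin sulfate, was at 128, 116, 161 and 110.5 CPM untreated and 155, 150.3 and 128 CPM with E+P in GFP+ stroma. In tdTomato+ stroma it was at 23.5, 17.1, 24.8 and 22.4 and 14.2, 16.8 and 19.1 CPM, so that the difference was 2.82 ± 0.12. Ctsh (ENSMUSG00000032359, chr9:90054152-90076089, + strand), an aminopeptidase, had 76.0, 78.2, 90.6 and 61.9 and 134, 117 and 119.8 CPM against 12.6, 6.96, 14.2 and 11.2 and 4.70, 10.5 and 9.13 CPM, a difference of 3.34 ± 0.18. Its 3 E+P libraries of GFP+ stroma all lay above the 4 untreated ones.

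A few genes went the other way. Gla (ENSMUSG00000031266, chrX:134588149-134601125, - strand), the glycosidase of globotriaosylceramide, had 21.6, 18.7, 21.5 and 23.6 CPM and 21.9, 22.2 and 28.3 CPM in GFP+ stroma and 50.4, 102, 63.5 and 56.5 and 51.5, 68.5 and 71.8 CPM in tdTomato+ stroma, a difference of -1.55 ± 0.15. It was the highest glycosidase by CPM in tdTomato+ stroma, and the subsets did not overlap. Ctsc (ENSMUSG00000030560, chr7:88278085-88310888, + strand), which activates serine proteases of leukocyte granules, differed by -1.04 ± 0.14 at means of 8.74 and 19.8 CPM untreated. Tfeb (ENSMUSG00000023990, chr17:47737030-47792419, + strand), a transcription factor of lysosomal genes, had means of 7.13 and 11.5 CPM untreated, with GFP+ stroma lower in 7 of 7 mice. Scarb2, the carrier of beta-glucocerebrosidase, was level at 0.04 ± 0.10.

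Ctss (ENSMUSG00000038642, chr3:95526786-95556403, + strand), a protease best known from macrophages and dendritic cells, lies 17423 bases from Ctsk on chromosome 3. Ctss had 9.42, 0.452, 1.66 and 7.59 CPM in untreated and 1.84, 6.43 and 6.55 CPM in E+P tdTomato+ stroma, and at most 0.731 CPM in any other library, with a difference of -4.21 ± 0.82 between the stromal subsets. The 13 macrophage markers, led there by Ptprc (CD45), were also higher in tdTomato+ stroma, with 6 of 6 tested below 0 in GFP+ minus tdTomato+. Their sum was 28.4, 28.5, 18.7 and 34.3 CPM untreated and 17.4, 14.5 and 18.9 CPM with E+P in tdTomato+ stroma, and 0.687 to 3.17 CPM in GFP+ stroma, though untreated replicate 2 of tdTomato+ stroma had little Ctss. The other marker lists split the stromal subsets as well: 9 of 9 fibroblast markers had differences above 0, and 10 of 11 pericyte and smooth muscle markers and 7 of 7 skeletal muscle markers below 0. Of the 6 endothelial markers 2 were above and 4 below 0, with sums of 139 to 273 CPM in GFP+ and 77.5 to 259 CPM in tdTomato+ stroma. The mitochondrial share of counts also differed, at 4.30% to 5.09% in GFP+ and 6.70% to 10.8% in tdTomato+ stroma. The part of these cell types and of that share in the differences of the 47 genes was not tested.

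**Figure D2:**
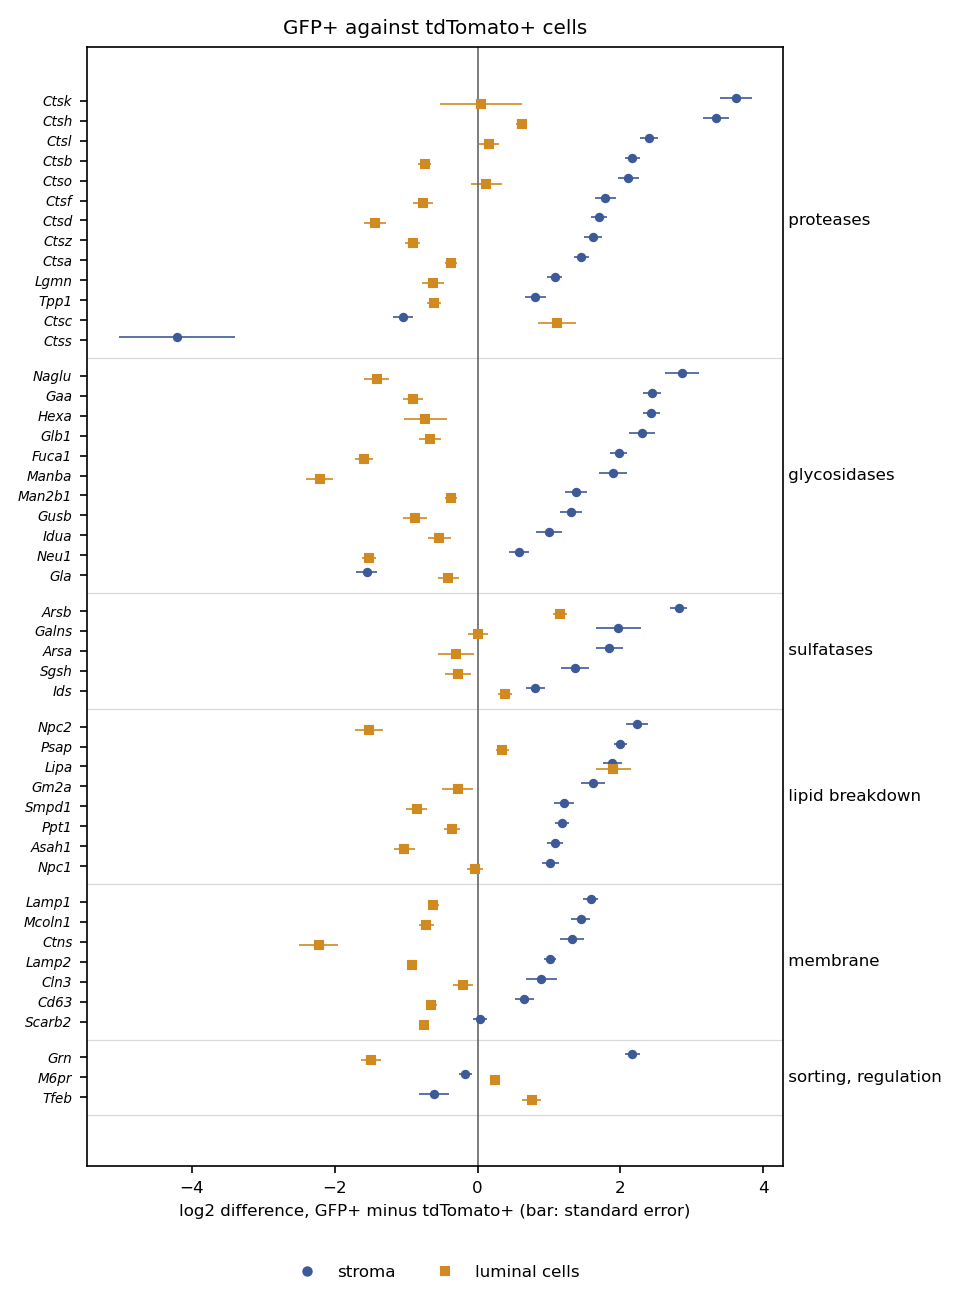
GFP+ minus tdTomato+ difference (log2, ± SE) of each lysosomal gene by class, in stroma and in luminal cells. In stroma, described only, the median was 1.45, and in luminal cells it was -0.61 over the 46 genes tested.

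Stroma against luminal cells asks which lysosomal genes mark each lineage. It shares the stromal libraries that chose the genes, and GFP+ stroma enters the stromal mean. The count, the medians and the p values of the 47 genes here may therefore rest in part on that choice. Across 19569 genes tested, 23 of the 47 were higher in stroma and 14 lower, where 33.0% of all genes were higher and 30.5% lower (edgeR). The median difference was 0.38 against 0.02 over all genes. Scaled by library size alone, the median of all genes moves by -0.29, the split becomes 17 higher and 17 lower (5112 and 8053 over all genes, against 6455 and 5972), and the glycosidases and lipid genes turn from more genes above 0 to more below, so a lean of the 47 genes towards stroma depends on the scaling. The proteases (9 higher, 3 lower) and sulfatases (3 higher, 0 lower of 5) had more genes higher in stroma, with medians of 0.53 and 0.67 that stayed above 0 by library size. The glycosidases (5 and 4) and lipid genes (3 and 2) were split, with medians of 0.24 and 0.16, or -0.05 and -0.13 by library size. The membrane genes (3 and 3) and those of sorting and control (0 and 2) had medians of -0.06 and -0.25.

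Ctsk was near its detection limit in luminal cells and well above it in stroma. Its levels ran from 13.6 to 423 (median 111.1) CPM over the 14 stromal libraries and from 0.0776 to 1.27 (median 0.513) CPM over the 14 luminal ones, a difference of 7.11 ± 0.27, adjusted p = 1.06e-16. No library overlapped, and stroma was higher in 7 of 7 mice. Hexa (ENSMUSG00000025232, chr9:59539540-59565109, + strand), the alpha subunit of the enzyme that degrades GM2 ganglioside, ran from 13.7 to 110.9 (median 55.2) CPM in stroma and from 1.08 to 8.77 (median 3.38) CPM in luminal cells (3.77 ± 0.17, adjusted p = 1.48e-16). Gla, though low in GFP+ stroma, ran from 18.7 to 102 (median 39.3) CPM against 4.08 to 8.83 (median 6.24) CPM (2.65 ± 0.11, adjusted p = 2.45e-17), so that both stromal subsets exceeded every luminal library. Ctsl (ENSMUSG00000021477, chr13:64359337-64370890, - strand), a cysteine endopeptidase, ran from 95.1 to 744 (median 391) CPM against 53.1 to 128 (median 75.7) CPM (1.88 ± 0.10, adjusted p = 4.1e-15), with overlap at the lower end. Hexa, Gla and Ctsl were higher in stroma in 7 of 7 mice.

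The genes lower in stroma included parts of the lysosomal membrane. Ctns (ENSMUSG00000005949, chr11:73183596-73199042, - strand), the exporter of cystine, ran from 6.03 to 27.2 (median 15.5) CPM in stroma and from 15.6 to 499 (median 30.8) CPM in luminal cells (-2.02 ± 0.16, adjusted p = 6.57e-11), with its highest values in tdTomato+ luminal cells under E+P. Cln3 (ENSMUSG00000030720, chr7:126571207-126585817, - strand), a membrane protein lost in Batten disease, ran from 2.503 to 8.995 (median 5.18) CPM against 9.73 to 23.8 (median 14.2) CPM (-1.54 ± 0.12, adjusted p = 7.7e-12), without overlap. Ctsh and Manba (ENSMUSG00000028164, chr3:135485611-135571404, + strand), the beta-mannosidase, were lower by the mean of the groups at -1.47 ± 0.10, adjusted p = 1.12e-12, and -1.44 ± 0.14, adjusted p = 1.5e-09. For Ctsh the low side was tdTomato+ stroma, and GFP+ stroma overlapped luminal cells. Its mean in GFP+ stroma under E+P was 123.6 CPM, against 111.3 and 93.8 CPM in GFP+ and tdTomato+ luminal cells. For Manba both stromal subsets overlapped GFP+ luminal cells. Each stood below every tdTomato+ luminal library, at up to 45.08 CPM in GFP+ and 18.4 CPM in tdTomato+ stroma against at least 90.26 CPM. The stromal mean was the lower one in 7 of 7 mice for Cln3, 7 of 7 for Ctsh, 7 of 7 for Manba and 6 of 7 for Ctns.

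Markers of the lineages split by the sorted lineage: 9 of 9 fibroblast markers were higher in stroma and 6 of 6 luminal markers lower, as were 3 of 4 basal ones. Higher in stroma were also 10 of 11 pericyte and smooth muscle, 4 of 7 skeletal muscle, 5 of 6 endothelial (1 lower) and 2 of 7 tested macrophage markers, and 1 of 1 tested adipocyte marker. Of the 4 Schwann cell markers 3 were tested, with 1 higher and 1 lower. The lower one, Sox10, is also known from mammary epithelium and led that list in luminal cells.

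GFP+ against tdTomato+ luminal cells asks whether luminal cells with a Cre history differ from their neighbours in the epithelium. Of 46 genes tested, 8 were higher and 25 lower in GFP+ cells, where 15.7% of 16538 genes were higher and 19.0% lower (edgeR). The median was -0.61 against 0.00 over all genes. Scaled by library size alone the median of all genes moves by 0.14, and 8 of the genes were higher and 21 lower, while the counts over all genes turn from 2601 higher and 3144 lower to 3539 and 2284. Without untreated replicate 2 or 3 the higher genes numbered 4, and without E+P replicate 2 or 3 they numbered 5, with 20 lower. All 11 glycosidases and all 7 membrane genes lay below 0 under each scaling, with 8 and 6 past the test, on the average of both treatments. Of the 12 proteases tested 2 were higher and 7 lower, and of the 8 lipid genes 2 and 3. The sulfatases had 2 higher and 0 lower of 5, and sorting and control had Tfeb and M6pr higher and Grn lower.

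This contrast averages untreated and E+P mice, and for some genes the gap was not the same in each. Of the genes past the test, Ctsb and Glb1 had lower means in GFP+ cells with E+P alone: untreated they were at 225 against 218 and 9.54 against 8.44 CPM. Others were near level untreated, such as Ctsd (67.4 against 71.4 CPM), Lamp1 (124.9 against 129.5), Man2b1 (23.9 against 24.6) and Ctsa (32.0 against 33.8). With E+P these stood at 55.7 against 371.5, 116.7 against 256.6, 25.1 against 39.5 and 30.6 against 46.6 CPM. Their gap thus lay mainly in the E+P libraries, unlike that of Neu1, Manba and Fuca1. Psap had a higher mean in GFP+ cells untreated (403 against 229 CPM) and not with E+P (350.3 against 366 CPM). Ctns had 15.6, 17.0, 23.8 and 15.7 CPM in untreated GFP+ cells and 23.8, 57.0, 36.0 and 16.3 CPM in untreated tdTomato+ cells, which overlapped, and 47.2, 35.9 and 25.6 against 267, 483 and 499 CPM with E+P, which did not (-2.23 ± 0.28, adjusted p = 4.44e-05, lower in GFP+ in 7 of 7 mice). Neu1 (ENSMUSG00000007038, chr17:34931253-34935953, + strand), the sialidase, had 21.3, 19.5, 18 and 19.9 against 30.7, 35.6, 26.3 and 29.7 CPM untreated and 17.3, 16.2 and 14.7 against 63.8, 90.9 and 92.2 CPM with E+P (-1.52 ± 0.10, adjusted p = 4.24e-07, 7 of 7 mice). It was lower in GFP+ cells in both treatments, and further so with E+P.

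Manba had 35.8, 18.03, 45.3 and 22.3 CPM in untreated GFP+ cells and 96.1, 106, 90.3 and 116 CPM in untreated tdTomato+ cells, then 25.8, 17.7 and 16.8 CPM in GFP+ cells and at least 106.6 CPM in each tdTomato+ library with E+P (-2.21 ± 0.19, adjusted p = 2.45e-06, lower in 7 of 7 mice). Fuca1 (ENSMUSG00000028673, chr4:135920735-135940311, + strand), which removes fucose, had 28.5, 23.4, 32.9 and 21.4 against 52.2, 51.3, 42.2 and 51.7 CPM untreated and 23.0, 20.7 and 13.7 against 80.2, 92.1 and 96.6 CPM with E+P (-1.59 ± 0.13, adjusted p = 1.05e-06, 7 of 7 mice). Neither gene's subsets overlapped in either treatment.

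Higher in GFP+ luminal cells was Lipa (ENSMUSG00000024781, chr19:34492318-34527474, - strand), the acid lipase that frees cholesterol and fatty acids. It had 39.2, 70.1, 38.9 and 81.2 CPM untreated and 16.9, 20.2 and 19.0 CPM with E+P in GFP+ cells, against 14.9, 9.44, 15.3 and 28.7 and 4.57, 4.11 and 4.24 CPM in tdTomato+ cells (1.90 ± 0.25, adjusted p = 4.38e-05, higher in 7 of 7 mice). Arsb had 22.4, 23.2, 20.6 and 18.4 and 25.04, 27.0 and 22.7 CPM against 14.9, 14.3, 16.4 and 17.3 and 5.69, 7.48 and 6.19 CPM (1.16 ± 0.10, adjusted p = 1.38e-06, 7 of 7 mice), with every GFP+ library above every tdTomato+ one. Tfeb had means of 12.7 ± 1.83 against 8.40 ± 1.54 CPM untreated (SD over 4 mice) and 11.6 ± 0.635 against 5.92 ± 0.738 CPM with E+P (3 mice), a difference of 0.76 ± 0.13, adjusted p = 0.000245 by edgeR, in 7 of 7 mice. Ctsc had 17.2, 30.3, 22.4 and 19.0 and 19.3, 17.8 and 13.7 CPM against 9.97, 6.64, 6.37 and 8.61 and 18.1, 5.30 and 6.09 CPM (1.11 ± 0.26, adjusted p = 0.00348, 7 of 7 mice). The tdTomato+ library of E+P replicate 1 reached the GFP+ range. The Ctsc call was lost without untreated replicate 2 or 3 or E+P replicate 2 or 3, with adjusted p between 0.0122 and 0.0169.

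Markers differed between the luminal subsets too. Lower in GFP+ cells were 3 of 6 luminal markers, with sums of 7580, 5551, 6188 and 6664 CPM untreated and 5041, 4403 and 5704 CPM with E+P against 7100 to 7744 CPM in tdTomato+ cells, led by Krt18 or Krt8. Higher were 3 of 10 tested pericyte and smooth muscle markers, Mcam, Acta2 and Tagln, with list sums of 165 to 252 against 104 to 189 CPM, 1 of 8 fibroblast, 1 of 4 basal and 1 of 2 tested Schwann markers (Sox10). Of 3 endothelial markers tested 1 was lower, and none of 3 macrophage and 2 skeletal muscle markers passed the edgeR test (1 and 0 at an unadjusted p under 0.05). The authors also report less Esr1 and Pgr, and more Elf5, Kit, Notch1 and Aldh1a3, in the GFP+ luminal cells. Hormone receptor status thus goes with the subset label and cannot be told apart from Cre history here. The part of these differences in the lysosomal result, and of receptor status in the E+P responses below, was not tested.

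E+P against untreated asks what the hormones of the growing gland do in each subset, with 3 treated and 4 untreated mice. The clearest response of the lysosomal genes was in tdTomato+ luminal cells. There 20 of 46 rose and 4 fell, where 7.63% of all genes rose and 6.44% fell (edgeR), and the median was 0.49 against -0.05. By library size alone the median of all genes moves by -0.22, the counts over all genes turn from 1262 up and 1065 down to 731 and 2165, and edgeR called 16 of the 46 higher and 6 lower, with 2 of the 3 genes of sorting and control below 0 instead of 1. Without E+P replicate 2, 14 rose and 2 fell. The rise took in 6 of 12 proteases, 6 of 11 glycosidases, 4 of 8 lipid genes, 3 of 7 membrane genes and Grn. Of the 5 sulfatases 0 rose and 1 fell, and 4 of the 5 lay below 0.

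Ctns rose most. It had 23.8, 57.0, 36.0 and 16.3 CPM in untreated and 267, 483 and 499 CPM in E+P tdTomato+ luminal cells, a change of 3.67 ± 0.39, adjusted p = 5.89e-05. The treated libraries lay far above the untreated ones. Npc2 (ENSMUSG00000021242, chr12:84754562-84773152, - strand), which hands cholesterol from lysosomes to the membrane protein Npc1, had 25.5, 22.8, 24.5 and 26.8 CPM untreated and 228, 131 and 149.3 CPM with E+P (2.79 ± 0.28, adjusted p = 2.39e-05). Grn (ENSMUSG00000034708, chr11:102430315-102437048, + strand), whose product is cut into granulins in lysosomes, had 64.1, 85.0, 55.0 and 80.6 against 425, 506 and 485 CPM (2.76 ± 0.20, adjusted p = 1.61e-06). Ctsd (ENSMUSG00000007891, chr7:142375911-142388038, - strand) had 86.3, 77.1, 68.3 and 53.9 against 369, 410.3 and 336 CPM (2.41 ± 0.21, adjusted p = 6.29e-06). For all 4 genes the 3 treated libraries lay above the 4 untreated ones.

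Several widely expressed lysosomal genes rose less steeply. Ctsb (ENSMUSG00000021939, chr14:63122462-63145923, + strand) had 243, 188, 209 and 232 CPM untreated and 336, 494 and 439 CPM with E+P (0.98 ± 0.13, adjusted p = 0.00015), and Lamp1 (ENSMUSG00000031447, chr8:13159161-13175338, + strand) 129, 131, 114 and 144 and 239, 266 and 265 CPM (1.01 ± 0.11, adjusted p = 2.99e-05). Psap (ENSMUSG00000004207, chr10:60277627-60302597, + strand) had 249, 181, 215 and 273 and 334, 412 and 353 CPM (0.70 ± 0.13, adjusted p = 0.00126). In each case the groups did not overlap. The other genes that rose were Ctsa, Ctsf, Ctsh, Ctsz, Glb1, Gusb, Naglu, Man2b1, Fuca1, Neu1, Ppt1, Gm2a and Lamp2, with changes from 0.49 (Ctsa) to 2.05 (Gm2a, the activator protein of GM2 breakdown). Glb1 overlaps Tmppe on the same strand, and Ppt1, Ctsa, Ctsb, Ctsz, Grn and Lamp1 overlap other genes on the opposite strand, so part of their counts may belong there.

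The 4 genes that fell were Ctso, Lipa, Arsb and Cln3. Ctso (ENSMUSG00000028015, chr3:81932601-81956725, + strand), a cysteine protease, had 19.2, 16.1, 14.8 and 17.2 CPM untreated and 1.28, 5.65 and 4.19 CPM with E+P (-2.12 ± 0.32, adjusted p = 0.000375), and Arsb 14.9, 14.3, 16.4 and 17.3 and 5.69, 7.48 and 6.19 CPM (-1.25 ± 0.14, adjusted p = 4.16e-05). Lipa had 14.9, 9.44, 15.3 and 28.7 against 4.57, 4.11 and 4.24 CPM (-1.97 ± 0.36, adjusted p = 0.00185) and Cln3 16.8, 22.6, 15.6 and 23.8 against 10.7, 12.2 and 11.2 CPM (-0.77 ± 0.19, adjusted p = 0.00918). No treated library of these genes reached an untreated one. The Lipa call was lost without any 1 of the 3 E+P replicates (adjusted p 0.0128 to 0.0183) and by limma-voom without and with mouse as a random block (0.011 and 0.0106), and the Cln3 call without untreated replicate 1, 2 or 4 or any E+P replicate (0.014 to 0.0407) and in a fit of the compared groups alone (0.013).

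**Figure D3:**
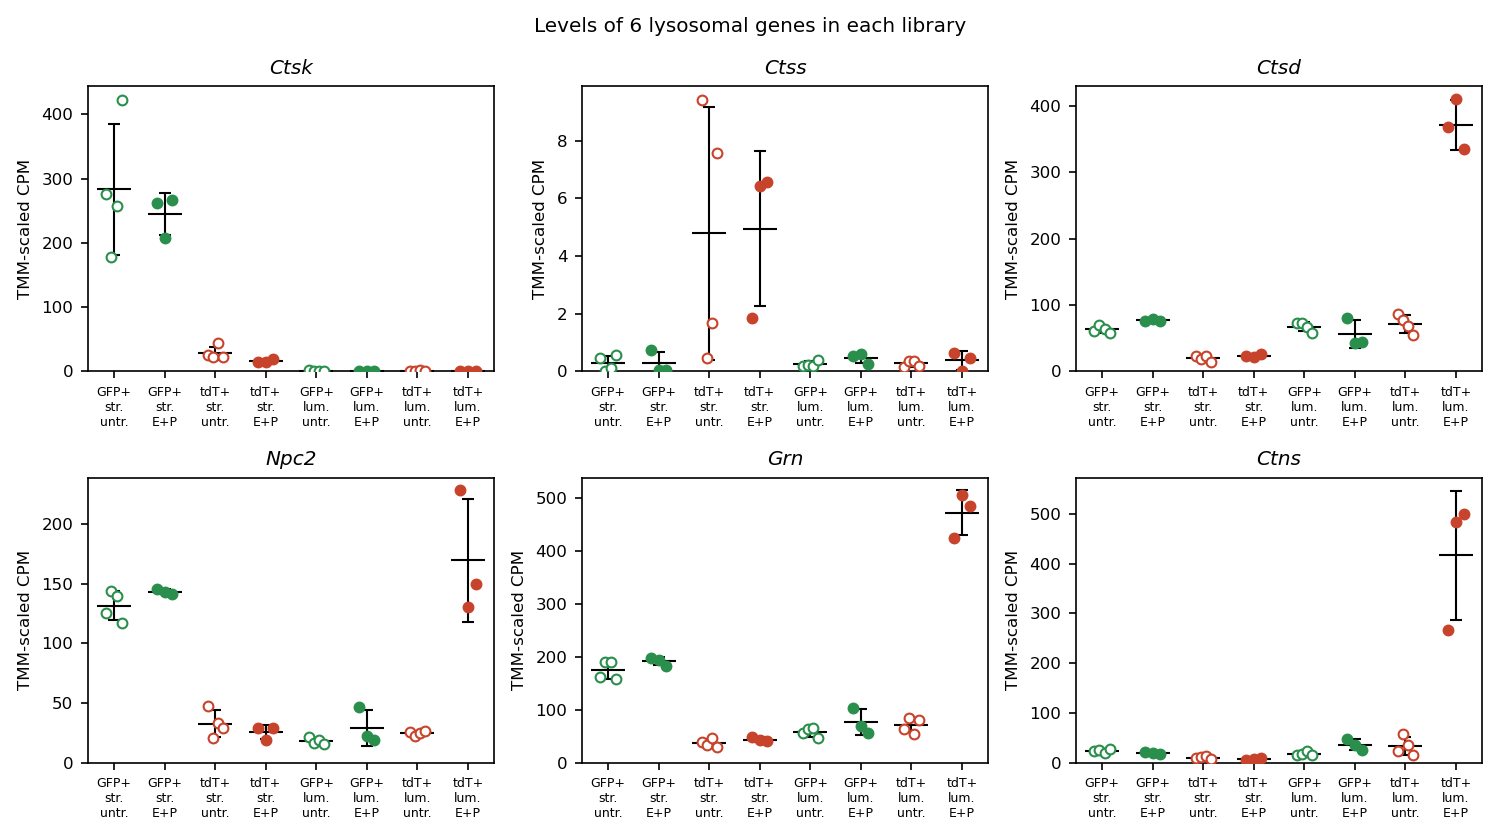
Level (CPM) of Ctsk, Ctss, Ctsd, Npc2, Grn and Ctns in each library of the 8 groups, with bars at the mean ± SD. Ctsk is highest in GFP+ stroma, Ctss stays under 10 CPM throughout, and Ctsd, Npc2, Grn and Ctns are higher with E+P in tdTomato+ luminal cells (372, 169, 472 and 417 CPM) than without it.

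GFP+ luminal cells of the same mice showed a different picture. There 1 gene rose and 3 fell, where 3.17% of all genes rose and 2.78% fell (edgeR), and the median was -0.23 against -0.03. By library size alone the median of all genes moves by -0.11, the counts over all genes turn from 525 up and 460 down to 357 and 636, and edgeR called 0 of the 46 higher and 5 lower. At an unadjusted p under 0.05, 3 of 46 were higher and 13 lower, where 4940 of all 16538 genes were either. Cd63 (ENSMUSG00000025351, chr10:128900989-128912822, + strand) fell from 84.8, 68.3, 73.7 and 64.4 CPM to 38.6, 39.7 and 44.9 CPM (-0.83 ± 0.11, adjusted p = 0.000434) and Scarb2 (ENSMUSG00000029426, chr5:92441314-92506833, - strand) from 175, 173, 182 and 149.8 CPM to 124.3, 132 and 109 CPM (-0.48 ± 0.10, adjusted p = 0.00666). Lipa fell from 39.2, 70.1, 38.9 and 81.2 CPM to 16.9, 20.2 and 19.0 CPM (-1.62 ± 0.34, adjusted p = 0.00806). The gene that rose was Gusb, the beta-glucuronidase, from a mean of 3.99 ± 0.676 to 9.52 ± 1.40 CPM (1.24 ± 0.25, adjusted p = 0.00505), named after its values were seen. No gene rose without untreated replicate 2 or 4 or without any 1 of the E+P replicates.

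Treated and untreated libraries did not overlap for Cd63, Lipa, Scarb2 and Gusb. The count of 4 drops to 1 without E+P replicate 2 or 3, to 2 without untreated replicate 1, 2 or 3 or E+P replicate 1, and to 3 without untreated replicate 4. Cd63 passed in each of these fits. The Lipa call was lost without untreated replicate 1 or 3 or any E+P replicate (adjusted p 0.0101 to 0.0515), without the low-count filter (0.0259) and in a fit of the compared groups alone (0.0116), and the Scarb2 call without any single replicate except untreated replicate 4 (0.0153 to 0.0567) and in that fit (0.025).

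**Figure D4:**
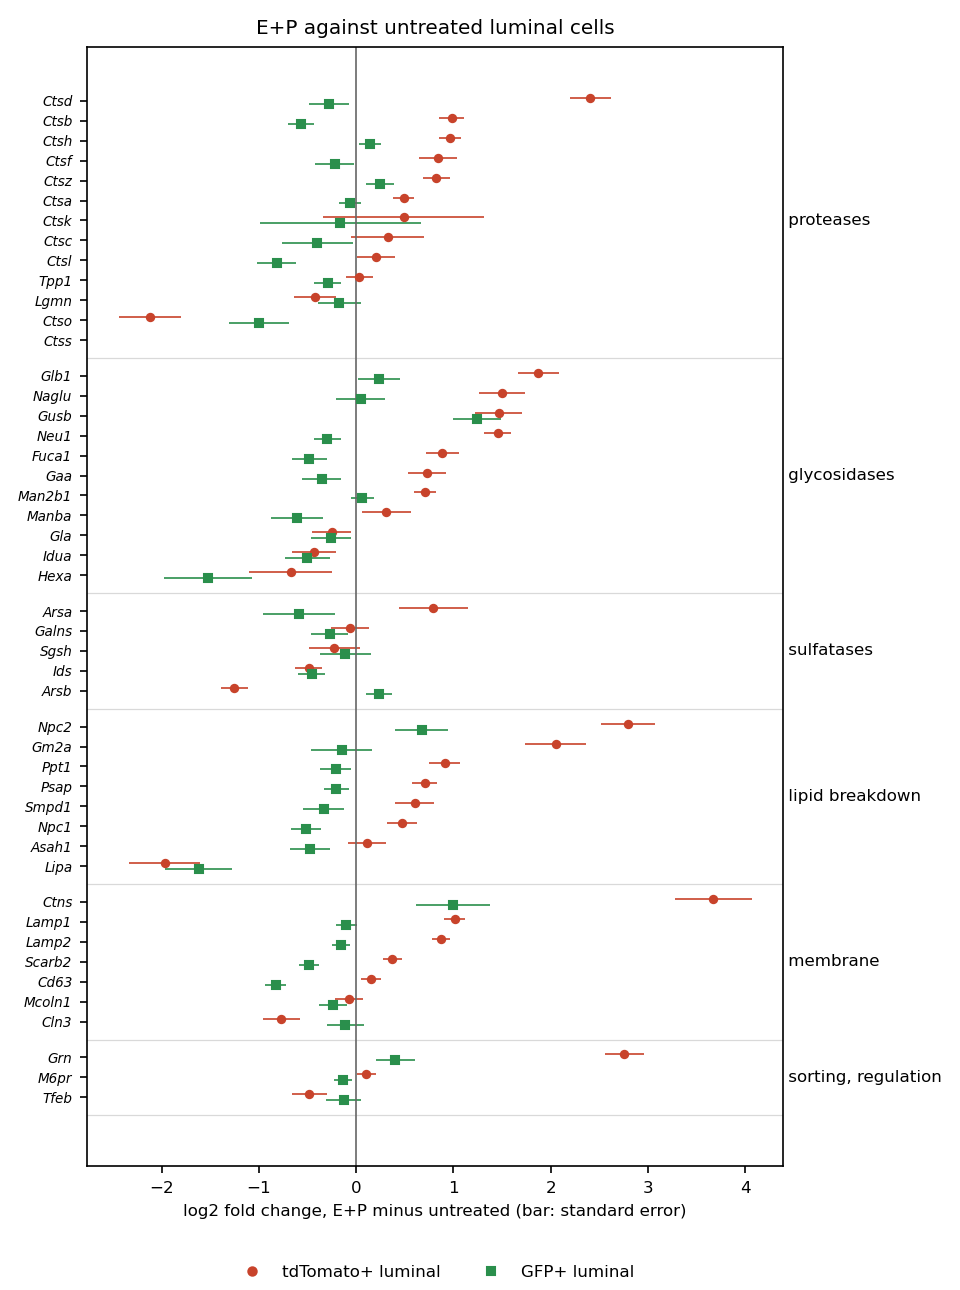
E+P minus untreated change (log2, ± SE) of each of 46 lysosomal genes by class in tdTomato+ and GFP+ luminal cells. The median change was 0.49 in tdTomato+ cells, where 20 genes rose and 4 fell, and -0.23 in GFP+ cells, where 1 rose and 3 fell.

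The E+P response itself differed between the luminal subsets for 15 of 46 genes, by the interaction of subset and treatment. It was lower in GFP+ cells for 14 and higher for 1, Arsb, where 1.49% and 0.786% of all genes were lower and higher (edgeR). The median interaction was -0.85 against 0.01. By library size alone the median of all genes moves by 0.12, and 8 were lower and 1 higher (165 and 203 over all genes, against 246 and 130). The 14 were Ctsd, Ctsb, Ctsh, Glb1, Fuca1, Neu1, Npc2, Psap, Ppt1, Lamp1, Lamp2, Cd63, Scarb2 and Grn. Of the 20 genes that rose in tdTomato+ cells, 12 had a lower response in GFP+ cells by this test, and in GFP+ cells 1 of the 20 rose, 9 lay above 0 and 11 below.

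Ctsd had 72.5, 72.2, 66.8 and 58.2 CPM in untreated and 79.9, 42.7 and 44.5 CPM in E+P GFP+ luminal cells, with a change of -0.28 ± 0.21 there and an interaction of -2.69 ± 0.30, adjusted p = 0.000383. Grn had 56.0, 63.0, 65.0 and 46.8 and 104, 69.6 and 56.1 CPM in GFP+ cells (0.40 ± 0.20), with an interaction of -2.35 ± 0.28, adjusted p = 0.000498. Npc2 had 21.6, 16.8, 19.1 and 15.5 and 46.7, 21.98 and 19.2 CPM (0.67 ± 0.27), with an interaction of -2.12 ± 0.39, adjusted p = 0.00689. In all 3 genes E+P replicate 1 was the highest GFP+ luminal library of its group and far below the E+P tdTomato+ ones. Neu1 had a difference of -0.30 ± 0.14 in GFP+ cells, with an interaction of -1.75 ± 0.20, adjusted p = 0.000383. Arsb, which fell in tdTomato+ cells, had 22.4, 23.2, 20.6 and 18.4 and 25.04, 27.0 and 22.7 CPM in GFP+ cells (0.23 ± 0.13, interaction 1.49 ± 0.19, adjusted p = 0.000765). Ctns had the largest rise in tdTomato+ cells, but its interaction of -2.68 ± 0.54 missed the threshold at an adjusted p of 0.012.

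The size of this set depends on single mice. The count of 15 was 3 without E+P replicate 2, 5 without E+P replicate 3, and 8 without untreated replicate 1. Without the other mice it was 10 to 13. The Grn interaction was lost without E+P replicate 2 (adjusted p 0.0126), and that of Npc2 without any single mouse except E+P replicate 1 (0.0169 to 0.036), by library size alone (0.0121) and without the low-count filter (0.0193).

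Other features of the luminal libraries differed between E+P and untreated mice. The mitochondrial share of counts was 6.23% to 9.35% in untreated and 13.7% to 15.9% in E+P GFP+ luminal libraries, and 9.90% to 10.4% and 10.7% to 12.8% in tdTomato+ ones. The 10 most abundant genes took 24.6% to 26.0% of counts in untreated and 27.9% to 33.5% in E+P tdTomato+ luminal libraries, and 19.6% to 25.6% and 27.6% to 32.4% in GFP+ ones. The 4 basal markers summed to 4.70, 5.91, 5.06 and 8.96 CPM untreated and 50.3, 31.7 and 31.8 CPM with E+P in tdTomato+ cells, led by Trp63, where Trp63 (4.26 ± 0.49, adjusted p = 5.92e-05) and Krt17 rose, and to 13.7, 19.4, 13.0 and 17.2 and 31.2, 28.5 and 43.7 CPM in GFP+ cells. The macrophage markers summed to 1.498, 0.791, 1.81 and 3.07 CPM untreated and 8.58, 2.65 and 4.28 CPM with E+P in tdTomato+ cells, where 1 of 3 tested, Csf1r, rose to 2.06 CPM, Lyz2 led and 3 of the 13 were at 0. Of 8 fibroblast markers 1 rose, Dcn, which led a sum of 27.3, 42.0 and 57.5 CPM against 19.3, 7.98, 76.2 and 7.76 CPM. The endothelial list, led by Vwf, summed to 31.1, 36.6, 45.9 and 134 CPM untreated and 223, 219.9 and 241 CPM with E+P, with 0 of 3 past the edgeR test (1 at an unadjusted p under 0.05). The 6 luminal markers had none past the test in tdTomato+ cells (3 at an unadjusted p under 0.05) and none in GFP+ cells (4). The part of these in the response of the 47 genes was not tested.

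In stroma none of the 47 genes passed the edgeR test for E+P in either subset. In GFP+ stroma 0.163% of all genes rose and 0.0675% fell, and the median of the 47 was 0.03 against 0.00. At an unadjusted p under 0.05, 2 were higher and 0 lower (1429 of 17783 over all genes), Mcoln1 and Ctsh, with the lowest adjusted p at 0.164. DESeq2 and limma-voom also called 0, and a fit of the GFP+ stromal groups alone called 1, Ctsh. In tdTomato+ stroma 0.0281% of all genes rose and 0.0956% fell, and the median of the 47 was -0.27 against -0.03. There 2 were higher and 12 lower at an unadjusted p under 0.05, as were 2780 of all 17783 genes. DESeq2 called 2 in tdTomato+ stroma and limma-voom 0, and edgeR called 1 without untreated replicate 2.

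None of the differences that follow passed the test. Ctsh had 76.7 ± 11.8 CPM in untreated (SD, 4 mice) and 123.6 ± 9.40 CPM in E+P GFP+ stroma (3 mice), a difference of 0.70 ± 0.23 that did not pass (edgeR adjusted p = 0.277). Mcoln1, the calcium channel of the lysosomal membrane, had 31.7, 35.9, 29.0 and 30.5 and 42.9, 60.0 and 41.4 CPM (0.61 ± 0.17). Lgmn, an asparagine-specific protease, had the lowest adjusted p in tdTomato+ stroma, with 17.2, 17.0, 18.7 and 13.6 CPM untreated and 22.9, 30.9 and 31.9 CPM with E+P (0.78 ± 0.15, adjusted p = 0.0246). Cd63 had 172 ± 56.6 and 100.2 ± 11.3 CPM there (-0.79 ± 0.19, adjusted p = 0.0627). These 4 are named after their values were seen.

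Whether the E+P response differs between the stromal subsets was asked by the same interaction, and 0 of 47 genes passed (edgeR), where 0.0450% of all genes were higher and 0.00% lower in GFP+ stroma. The median interaction was 0.18 against 0.04, and 7 were higher and 1 lower at an unadjusted p under 0.05, as were 1858 of all 17783 genes. DESeq2 and limma-voom called 0. The fibroblast markers in tdTomato+ stroma were 5083, 2397, 6693 and 2844 CPM untreated and 2260, 1818 and 2347 CPM with E+P, where 9 of 9 lay below 0 at an unadjusted p under 0.05 and 0 passed the edgeR test. The luminal markers had 0 past the test in either stromal subset, with 3 of 6 in GFP+ and 5 of 6 in tdTomato+ stroma lower at an unadjusted p under 0.05. In GFP+ stroma 1 of 11 pericyte and smooth muscle markers fell. Skeletal muscle, macrophage, endothelial, basal, adipocyte and Schwann markers had 0 past the test, with 0, 1, 4, 0, 0 and 1 at an unadjusted p under 0.05 in tdTomato+ and 0, 0, 1, 0, 1 and 1 in GFP+ stroma. The part of any of these in the E+P values was not tested.

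Each of the 47 genes has a group where its mean is highest. For 15 it was untreated GFP+ stroma and for 12 E+P GFP+ stroma, where 10.4% and 13.4% of all genes were highest. For 12 it was E+P tdTomato+ luminal cells (13.0% of all genes), and for 5 untreated GFP+ luminal cells (8.97%). The remaining 3 were highest in untreated tdTomato+ luminal cells (13.4% of all genes), untreated tdTomato+ stroma (11.5%) and E+P tdTomato+ stroma (15.5%), 1 in each, and none in E+P GFP+ luminal cells (13.9%). The stromal counts rest in part on the contrast that chose the genes.

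Counts of other genes of the pathway stand beside the shares of all genes: 33.0% higher and 30.5% lower in stroma than in luminal cells, 15.7% and 19.0% between luminal subsets, and, for E+P, 7.63% up and 6.44% down in tdTomato+ and 3.17% and 2.78% in GFP+ luminal cells. For GFP+ minus tdTomato+ stroma the median of all genes was -0.01. That contrast and this pathway led to the choice of genes, so the stromal subset counts of these lists test nothing. Of 49 other lysosomal proteins, 37 of 44 tested had a difference above 0 and 7 below in GFP+ minus tdTomato+ stroma (described), and 21 were higher and 9 lower of 46 in stroma against luminal cells. Between luminal subsets 3 were higher and 20 lower of 43 in GFP+ cells. With E+P, 8 of 43 rose and 1 fell in tdTomato+ luminal cells, and 0 rose and 2 fell in GFP+ luminal cells. The interaction was lower for 4 of the 43, where 1.49% of all genes were lower. Ppt2, a thioesterase, rose from 3.15 ± 0.828 to 15.1 ± 4.50 CPM in tdTomato+ cells (2.28 ± 0.24, adjusted p = 2.45e-05, interaction -1.85 ± 0.36, adjusted p = 0.00726). Hyal1, a hyaluronidase whose gene overlaps Naa80 and Hyal3 on the same strand, rose from 6.66 ± 0.959 to 15.7 ± 2.64 CPM (1.26 ± 0.20, adjusted p = 0.000475, interaction -1.79 ± 0.29, adjusted p = 0.00247). Epdr1 rose by 2.11 ± 0.45, adjusted p = 0.00364.

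Between lineages Mcoln2 had group means of 33.1 to 58.7 CPM in stroma and at most 0.787 CPM in luminal cells (adjusted p = 8.18e-16, higher in 7 of 7 mice), and Gpnmb was also higher in stroma (5.67 ± 0.28, adjusted p = 7.08e-15). The aspartic protease Ctse had group means of at most 1.74 CPM in stroma and 1.23 to 49.2 CPM in luminal cells (adjusted p = 1.11e-08, lower in 7 of 7 mice). Ctse and the sialomucin Cd164 were also lower in GFP+ than in tdTomato+ luminal cells, Ctse at 8.73 ± 7.94 against 49.2 ± 12.1 CPM untreated (-3.57 ± 0.53, adjusted p = 0.000167) and Cd164 at 557 ± 360.3 against 2253 ± 299.5 CPM (-2.23 ± 0.28, adjusted p = 4.85e-05). Smpdl3a and Galc were higher there (1.16 ± 0.21, adjusted p = 0.000399, and 0.65 ± 0.17, adjusted p = 0.00513). Fuca2, a further fucosidase, was lower in stroma (-2.64 ± 0.15, adjusted p = 1.94e-14).

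Of 23 subunits and partners of the vacuolar ATPase, 21 were tested in luminal cells, and with E+P 1 rose and 3 fell in tdTomato+ cells, where 7.63% of all genes rose and 6.44% fell. Atp6ap1, an accessory subunit, rose from 54.1 ± 4.82 to 121 ± 13.9 CPM (1.19 ± 0.15, adjusted p = 0.000117), and its response was lower in GFP+ cells (interaction -1.54 ± 0.22, adjusted p = 0.00124). Tcirg1 fell from 58.0 ± 8.56 to 26.0 ± 4.88 CPM (-1.13 ± 0.14, adjusted p = 0.000111). Atp6v1b1, a form of the B subunit known from acid-secreting epithelia, was at 283, 318, 229.6 and 449.5 CPM in untreated GFP+ luminal cells and 69.3, 27.5, 66.8 and 141 CPM in tdTomato+ ones, and at most a mean of 1.22 CPM in a stromal group. It was higher in GFP+ luminal cells (2.55 ± 0.33, adjusted p = 6.69e-05) and fell with E+P in tdTomato+ ones (-2.22 ± 0.48, adjusted p = 0.0055). Between lineages 8 of 23 were higher and 6 lower in stroma (33.0% and 30.5% of all genes), between luminal subsets 3 of 21 were higher and 8 lower in GFP+ cells (15.7% and 19.0%), and between stromal subsets 16 of 21 lay above 0 and 5 below (described).

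Of 26 genes that sort proteins to lysosomes, 11 were higher and 10 lower in stroma than in luminal cells (33.0% and 30.5% of all genes), and 3 higher and 8 lower in GFP+ luminal cells (15.7% and 19.0%). In GFP+ minus tdTomato+ stroma 20 of 25 lay above 0 and 5 below (described). Gga2, an adaptor for mannose 6-phosphate receptors, rose with E+P in both luminal subsets, from 3.501 ± 1.19 to 15.2 ± 3.57 CPM in GFP+ (2.10 ± 0.25, adjusted p = 0.000341) and from 10.8 ± 1.91 to 23.5 ± 2.74 CPM in tdTomato+ cells (1.14 ± 0.23, adjusted p = 0.00282). It was the sole sorting gene to rise in either. Cltb, a clathrin light chain, fell in GFP+ luminal cells (-1.03 ± 0.13, adjusted p = 0.000406). Sort1, a sorting receptor, was lower in stroma (-1.49 ± 0.09, adjusted p = 9.71e-14) and in GFP+ luminal cells (-1.47 ± 0.12, adjusted p = 1.05e-06), at 76.0 ± 14.3 against 162 ± 22.6 CPM untreated. In stroma it was also far lower in GFP+ than in tdTomato+ libraries, -2.64 ± 0.13.

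Tfeb and its relatives Tfe3, Mitf and Tfec share a DNA-binding domain and bind lysosomal promoters. Mitf stood out: it had 175, 189, 124.4 and 178 CPM in untreated GFP+ stroma and 42.9, 34.7, 32.1 and 46.6 CPM in untreated tdTomato+ stroma, and means of at most 8.94 CPM in luminal groups (stroma against luminal cells 3.97 ± 0.10, adjusted p = 4.18e-21, higher in 7 of 7 mice). With E+P it rose in tdTomato+ luminal cells from 4.65, 3.47, 3.54 and 3.45 to 9.30, 7.48 and 10.0 CPM (1.26 ± 0.23, adjusted p = 0.00144), and its response was lower in GFP+ cells, at 7.16, 6.95, 4.57 and 5.51 and 2.25, 3.72 and 3.33 CPM (interaction -2.22 ± 0.34, adjusted p = 0.00179). Tfe3 varied little, with group means from 30.3 to 50.2 CPM and a higher level in stroma (0.47 ± 0.08, adjusted p = 4.9e-06, 7 of 7 mice), and Tfec was at or near 0 in every group. The list of 18 also holds regulators of mTOR and the Rag GTPases: 9 of 17 were higher and 4 lower in stroma, among them Rragd (2.34 ± 0.31, adjusted p = 4.43e-07) and Lamtor2 (-0.84 ± 0.11, adjusted p = 2.03e-07). Lamtor1 and Mtor were the 2 of 17 lower in GFP+ luminal cells, and Fnip2 rose with E+P in tdTomato+ luminal cells (0.66 ± 0.16, adjusted p = 0.00721). In GFP+ minus tdTomato+ stroma 13 of 17 lay above 0 and 4 below (described). Rragd was among those below, at -3.16 ± 0.39, so its higher stromal level lay mainly in tdTomato+ stroma.

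Of 9 inhibitors of cathepsins and related proteases, 8 were tested between lineages, with 6 higher and 0 lower in stroma, where 33.0% of all genes were higher and 30.5% lower. Serpina3n, which binds serine proteases outside the cell, had group means of 18.04 to 197 CPM in stroma and at most 0.371 CPM in luminal cells (adjusted p = 1.13e-15, higher in 7 of 7 mice). Serpina3g had 7.59 to 35.1 CPM in stroma and at most 1.06 CPM in luminal cells (adjusted p = 1.23e-10, higher in 7 of 7 mice). In luminal cells Serpinb6a was higher in GFP+ cells (1.24 ± 0.17, adjusted p = 6.4e-05) and Spink2 rose with E+P in tdTomato+ ones, from a mean of 0.0706 CPM, under the level of 3 counts, to 7.70, 12.9 and 16.5 CPM (adjusted p = 0.000849). Cst3, which encodes the cysteine protease inhibitor cystatin C, had 77.2, 127, 51.1 and 20.4 and 17.0, 13.4 and 13.2 CPM in GFP+ and 25.7, 11.4, 21.8 and 7.49 and 75.6, 51.3 and 43.7 CPM in tdTomato+ luminal cells, an interaction of -4.06 ± 0.78, adjusted p = 0.00963. Its change in tdTomato+ cells alone, 1.81 ± 0.53, missed the threshold (edgeR adjusted p = 0.0247), as did that in GFP+ cells alone, -2.25 ± 0.57 (edgeR adjusted p = 0.0209). In GFP+ minus tdTomato+ stroma 4 of 7 inhibitors lay above 0 and 3 below (described), and for E+P none of the 5 pathway lists had a gene past the edgeR test in either stromal subset or in their interaction. In the order of the lists above, 2, 2, 2, 1 and 2 genes had an unadjusted p under 0.05 in GFP+ stroma, 7, 9, 4, 2 and 2 in tdTomato+ stroma, and 8, 6, 4, 1 and 0 for the interaction. Of all 17783 genes 1429, 2780 and 1858 had such a p. The numbers tested in each list were those given for the described stromal contrast. In GFP+ luminal cells under E+P the vacuolar ATPase, Tfeb and inhibitor lists had 0 genes past the edgeR test (10, 1 and 3 at an unadjusted p under 0.05), and the sorting list had 0 for the luminal interaction (5). Of all 16538 genes 4940 had such a p in GFP+ luminal cells and 3633 for the luminal interaction.

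Promoters show a feature that the choice of genes did not use. Tfeb and its relatives bind an E-box, CACGTG, within the longer letters TCACGTGA that many lysosomal promoters hold. Windows from 250 bases before to 50 after the start were available for 41 of the 47 genes (RefSeq, GRCm38.p6). The letters CACGTG, which read the same on both strands, were in 14 of the 41 (34.15%), against 8.09% of 27025 genes and 11.2% of the 11488 genes tested in stroma. TCACGTG, which contains them and was searched on both strands, was in 12 (29.3% against 4.29% and 6.65%), and TCACGTGA in 5 (12.2% against 1.12% and 2.06%). By class CACGTG was in 5 of 11 proteases, 4 of 11 glycosidases, 2 of 4 sulfatases, 0 of 6 lipid genes, 3 of 7 membrane genes and 0 of 2 of sorting and control. The share was not particular to the 47 genes, nor common to lysosomal proteins. Of the pathway lists, CACGTG was in 3 of 33 other lysosomal proteins (9.09%) and 4 of 17 vacuolar ATPase genes (23.5%). It was in 7 of 22 sorting genes (31.8%), 5 of 17 Tfeb relatives and their control (29.4%) and 0 of 8 cathepsin inhibitors. The 14 genes were Arsa, Cln3, Ctsa, Ctsd, Ctsf, Ctsl, Gaa, Gla, Glb1, Lamp1, Lgmn, Mcoln1, Naglu and Sgsh. No window was matched for Ctsb, Ctsh, Galns, Asah1, M6pr and Npc1.

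The 250 bases before the start are printed for 4 of the genes, with CACGTG in capitals, because they span the range from 4 matches to 1. They were picked with their E+P response in tdTomato+ luminal cells known, where 3 of them rose. There 6 of the 14 genes with the letters rose and 1 fell, and 12 of the 26 tested with a window but without them rose and 3 fell. Lamp1 has 4 matches (chr8:13158911-13159160, + strand), Ctsd 2 (chr7:142387828-142388077, - strand), Mcoln1 2 (chr8:3500269-3500518, + strand) and Glb1 1 (chr9:114400828-114401077, + strand). Mcoln1 did not change in those cells past the test (-0.08 ± 0.14, adjusted p = 0.733 by edgeR). The windows of Ctns, Npc2 and Grn, the steepest to rise there, hold no CACGTG. A match describes these letters, and binding was not measured.
Lamp1: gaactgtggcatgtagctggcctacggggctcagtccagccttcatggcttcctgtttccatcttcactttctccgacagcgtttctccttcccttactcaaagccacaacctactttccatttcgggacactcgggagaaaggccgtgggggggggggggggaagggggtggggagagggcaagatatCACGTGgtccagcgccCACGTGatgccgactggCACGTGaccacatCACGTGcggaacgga
Ctsd: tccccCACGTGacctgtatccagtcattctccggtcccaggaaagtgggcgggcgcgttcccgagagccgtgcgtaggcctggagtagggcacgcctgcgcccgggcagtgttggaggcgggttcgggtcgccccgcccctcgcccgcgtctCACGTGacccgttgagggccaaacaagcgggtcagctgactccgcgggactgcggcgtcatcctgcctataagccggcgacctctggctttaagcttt
Mcoln1: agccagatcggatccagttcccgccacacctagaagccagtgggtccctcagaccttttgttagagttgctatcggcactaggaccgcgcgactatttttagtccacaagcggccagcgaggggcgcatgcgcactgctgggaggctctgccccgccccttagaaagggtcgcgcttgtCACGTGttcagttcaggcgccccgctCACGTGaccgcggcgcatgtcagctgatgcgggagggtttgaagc
Glb1: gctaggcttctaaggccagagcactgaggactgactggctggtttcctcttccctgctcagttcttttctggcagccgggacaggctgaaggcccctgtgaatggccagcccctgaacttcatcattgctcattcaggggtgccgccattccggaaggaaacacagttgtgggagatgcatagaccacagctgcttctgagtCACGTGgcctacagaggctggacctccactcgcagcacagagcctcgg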

How the data were processed

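The authors made the deposited counts, raw reads per gene without molecular identifiers, with STAR 2.5.2a on GRCm38.p5. Counts were read for 28 libraries of 7 mice, grouped by their titles, and reads were not aligned again. Symbols and coordinates came from GENCODE M21, in which 50376 of 50600 gene IDs were found. Depth was 8623383 to 24583803 counts (median 15329083.5).

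Differences were tested with edgeR 4.0.16 (R 4.3.3): filterByExpr, TMM, a robust quasi-likelihood F-test on groups, and Benjamini-Hochberg adjustment over all genes tested (17783 in stroma, 16538 in luminal cells, 19569 in all), at 0.01, two-sided. The tests were tried on simulated data with known changes. Standard errors came from the F statistic. Comparisons were stroma against luminal cells, GFP+ against tdTomato+ luminal cells, E+P against untreated in each of 4 subsets, and whether that response differed by subset within a lineage (an interaction term). GFP+ against tdTomato+ stroma had chosen the genes and is described without p.

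The genes and lists were chosen with earlier results of these data known. There were 5 pathway lists (other lysosomal proteins, vacuolar ATPase, sorting, Tfeb relatives and their control, cathepsin inhibitors) and 9 marker lists (macrophage, fibroblast, pericyte and smooth muscle, skeletal muscle, endothelial, luminal, basal, adipocyte, Schwann cell). Csta2, listed with the inhibitors, was not among the counted genes. Named genes are up to 4 per direction and test with the largest change at a mean of 10 CPM or more, up to 5 per direction in the described contrast, the 3 highest per length in each subset, and Tfeb, M6pr, Ctsk and Ctss, with up to 2 per direction from each other list, and Tfe3, Mitf and Tfec.

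Alternatives were an adjusted p of 0.05, DESeq2 1.42.0 size factors, library size alone, the DESeq2 Wald test, limma-voom 3.58.1, no filter, a fit of the compared groups alone, a replicate block for mouse, and each mouse left out. Promoter windows came from RefSeq on GRCm38.p6. Whether counting kept the strand is not stated. Splicing, single cells and protein were not analysed here.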

Additional observations from a re-analysis of the deposited data

Results flagged for a closer look

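In groups of 4 untreated libraries, 4 of 150 values tested stood apart from the other 3 of their group, and chance gives about 1 group in 20. Ppt1 in GFP+ luminal replicate 3 was 35.61 CPM, against 45.83 to 47.36 CPM in the other libraries. Fuca1 in tdTomato+ luminal replicate 3 was 42.24 CPM (others 51.32 to 52.17), Tpp1 in GFP+ stroma replicate 2 was 56.3 CPM (others 41.49 to 43.37), and Naglu in GFP+ stroma replicate 4 was 37.26 CPM (others 25.22 to 25.9).

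The E+P response differed between the luminal subsets by the edgeR interaction test for 15 genes. The response of GFP+ cells minus that of tdTomato+ cells (log2) was -2.685 for Ctsd, -2.3524 for Grn, -2.1204 for Npc2, -1.7523 for Neu1, -1.6418 for Glb1, -1.5476 for Ctsb, -1.368 for Fuca1, -1.1215 for Ppt1, -1.113 for Lamp1, -1.0236 for Lamp2, -0.9783 for Cd63, -0.9062 for Psap, -0.8564 for Scarb2, -0.8211 for Ctsh and 1.4851 for Arsb. Without E+P replicate 2 the count was 3, and without E+P replicate 3 it was 5.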

How the results depend on the processing

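None of the 32 differences followed through the alternatives, each of a gene among the 47, reversed. Other named differences were not followed. Counts over all genes reversed in part: by library size alone the direction with more genes past the test turned for stroma against luminal cells, the luminal subsets, E+P in each luminal subset and the luminal interaction, and the 47 genes went from 23 higher and 14 lower in stroma to 17 and 17. The number of the 47 genes past the threshold stayed within 1.5 times that reported, except as follows, and the cause was not tested. At an adjusted p under 0.05 it was 1 for E+P in tdTomato+ stroma (0 at 0.01), 10 in GFP+ luminal cells (4) and 23 for the luminal interaction (15). The DESeq2 Wald test gave 2 for E+P in tdTomato+ stroma and 8 in GFP+ luminal cells. Without the low-count filter 3 passed in tdTomato+ stroma and 1 for the stromal interaction (0). Scaling by library size alone gave 9 for the luminal interaction, and a fit of the compared groups alone gave 1 for E+P in GFP+ stroma (0).

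Without 1 mouse at a time the counts ran from 35 to 37 for stroma against luminal cells (37), 25 to 32 for the luminal subsets (33), 0 to 0 for E+P in GFP+ stroma, 0 to 1 in tdTomato+ stroma, 1 to 3 in GFP+ luminal cells, 16 to 23 in tdTomato+ luminal cells (24), and 0 to 0 for the stromal and 3 to 13 for the luminal interaction.

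With mouse as a replicate block the counts were 35 for stroma against luminal cells, 32 for the luminal subsets, and 0 and 16 for the stromal and luminal interactions. With mouse as a random block in limma-voom they were 0, 0, 3 and 25 for E+P in GFP+ stroma, tdTomato+ stroma, GFP+ luminal and tdTomato+ luminal cells.

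These 32 differences gave 427 values under these alternatives. Of these, 388 kept their direction and side of the threshold, and 39 kept their direction but no longer passed, 31 of them without 1 mouse. At this depth 3 counts equal 0.116 to 0.302 CPM, so levels under about that are not told from 0.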
